A study of Mus musculus with 12 samples.

Results

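The matrix metalloproteinases (Mmp genes), the membrane-bound Adam and secreted Adamts metalloproteases and the Timp inhibitors were followed as 1 set of genes over 12 mouse arrays. The members were chosen by name, as every non-control probe whose accession maps to a gene symbol of the form Mmp, Timp, Adam or Adamts followed by a number. This gave 79 of the 20659 named genes, with 105 of 39429 probes: 22 Mmp, 4 Timp, 34 Adam and 19 Adamts genes. Statistics were run on the 75 probes (63 genes) whose sample channel stood well above background on 2 or more arrays, 51 of which were so on all 12 arrays. Of the other probes, 27 were too dim and 3 carried a flag for an outlying spot or an uneven local background.

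Each array held 1 sample labelled with Cy5 against a Cy3-labelled pool made from all conditions, and values are given as the log2 ratio of sample to pool. The samples were wild type (wt) or heterozygous for Eng (Eng+/-), at day 50 or day 90, with no named treatment or with clp or tpa. Endoglin, the product of Eng, is a co-receptor for Tgf-β and Bmp ligands, and the series is presented as a study of endoglin in the hair follicle cycle. The 12 groups were Eng+/- and wt at 50 d and at 90 d with no named treatment, the same 4 under clp and those 4 under tpa, each on 1 array. The sources used here do not say what clp and tpa are or what the days count from, and do not tell whether the RNA came from pooled animals, 1 clone or separate cultures. The titles of both wt samples with no named treatment also say pool; they were taken as wt.

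Matrix metalloproteinases are zinc enzymes, mostly secreted as inactive precursors, that cut collagens, proteoglycans and other proteins outside the cell. Adam proteases sit in the cell membrane and release the outer parts of membrane proteins such as growth factor precursors, while Adamts enzymes are secreted and trim proteoglycans and procollagens. Timps bind the active site of these enzymes and block it, and in skin the balance of both sides is known for its part in wound repair and in the remodelling that comes with hair growth.

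A group of 10 Mmp genes lies together on mouse chromosome 9, where several share a promoter layout that is known to respond to the transcription factor AP-1. Promoters of 49 of the 79 genes, and of the clustered Mmp27, which has no probe here, were found in a RefSeq table of 300 bases a promoter (build GRCm38.p6), 55 promoters of 50 genes in all. The AP-1 motif TGAGTCA or its reverse complement TGACTCA stood in 7 of the 12 promoters of the 10 clustered genes, in 3 of the 43 promoters of the genes outside the cluster (Adam19, Adam1b and Adam29) and in 5.2% of all 32851 promoters of that length. The TATA box letters TATAAA, read on both strands, stood in 9 of the 12, in 6 of the 43 and in 13.6% of all. Each promoter held 250 bases before the start and 50 after it, and matches were counted over all of these. The motifs do not overlap. The 250 bases before the start of Mmp13, Mmp3 and Mmp12 are shown because Mmp13 and Mmp12 were called in a comparison below and Mmp3, which was not, varied most over the arrays; all are on the plus strand, and capitals mark the AP-1 letters and, where they stand in the printed strand, the letters TATAAA. Mmp12 has another promoter among those counted, with neither motif, and the one printed was picked because it holds the AP-1 letters. Adam19, also called below, holds TGAGTCA 131 bases before its start and is not printed. A match is a description of the letters only.
Mmp13 promoter, chr9:7272264-7272513: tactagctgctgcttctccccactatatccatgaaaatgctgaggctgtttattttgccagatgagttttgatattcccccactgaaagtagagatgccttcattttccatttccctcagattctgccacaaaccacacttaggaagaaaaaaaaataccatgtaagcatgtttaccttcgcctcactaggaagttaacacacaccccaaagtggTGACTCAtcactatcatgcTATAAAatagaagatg
Mmp3 promoter, chr9:7445572-7445821: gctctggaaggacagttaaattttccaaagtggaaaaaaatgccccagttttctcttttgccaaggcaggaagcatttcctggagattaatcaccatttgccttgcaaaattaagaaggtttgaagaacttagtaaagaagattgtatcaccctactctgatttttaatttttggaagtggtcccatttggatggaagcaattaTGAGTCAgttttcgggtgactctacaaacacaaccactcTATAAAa
Mmp12 promoter, chr9:7347124-7347373: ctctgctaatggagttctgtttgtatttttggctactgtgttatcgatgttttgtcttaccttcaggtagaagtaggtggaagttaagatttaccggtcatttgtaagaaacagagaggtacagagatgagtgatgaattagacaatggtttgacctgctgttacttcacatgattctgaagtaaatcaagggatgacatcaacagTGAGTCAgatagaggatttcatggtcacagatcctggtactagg
The AP-1 letters begin 35 bases before the start in Mmp13, 46 bases in Mmp3 and 44 bases in Mmp12. The TATAAA match counted for this Mmp12 promoter does not lie within the printed bases, on either strand.

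Several arrays stood apart and touch the results. The targeted gene was checked first: Eng had a lower ratio on the Eng+/- array in 5 of 6 matched pairs (differences from -1.73 to -0.24), but a higher one on the array labelled Eng+/- tpa 50 d (-0.49) than on the array labelled wt tpa 50 d (-1.13). Over the 6 pairs the genotype difference of Eng was -0.75 ± 0.26 (SE), which did not pass the test (limma, adjusted p = 0.496). Eng also varied with treatment: it was higher with clp than with no named treatment by 1.55 ± 0.32 (limma, adjusted p = 0.0189), with pairs from 0.01 to 2.37. The array labelled Eng+/- none 90 d resembled both tpa 50 d arrays (Pearson r = 0.957 and 0.969 over all tested probes) more than any array of its own treatment (at most 0.780), and these 3 arrays had the lowest mean ratios of 14 hair shaft and root sheath marker probes, from -5.87 to -4.58. The labels call the material E14 embryonic stem cells, of whose 8 markers 5 were above background on all 12 arrays, Pou5f1 on 1 and Zfp42 on 0, whereas all 8 epidermis and all 9 skeletal muscle markers were above background on all 12. Cy5 signals were well above background at 65.7% to 77.7% of spots, with median intensities from 166.5 to 573. Each treatment was hybridised on a slide of its own, so that treatment and slide cannot be told apart, whereas every slide carries both genotypes and both days.

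With clp, 14 of the 75 tested protease and inhibitor probes differed from the arrays with no named treatment, 12 of them lower and 2 higher. The test was limma's moderated test with Benjamini-Hochberg adjustment over all 30233 tested probes, of which 17.2% were called, 9.95% higher and 7.28% lower. The share among the members, 18.7%, was therefore near that of the array as a whole, and the calls describe single genes. Adam8, Adamts2, Adam19, Adam23, Adam15, Adam17 and Mmp9 fell, and Adamts18 and Timp4 rose. The median difference of the 75 probes was -0.15, beside 0.02 over all tested probes, and 77.3% of the 75 had a negative difference, beside 47.3% of all. In bulk RNA, fewer cells of a type and less RNA per cell cannot be told apart.

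Between tpa and no named treatment, none of the 75 probes passed (smallest adjusted p = 0.0922, Timp2, with 14 at an unadjusted p under 0.05), where 0.0761% of all probes were called (0.0132% higher, 0.0628% lower). This rested on 1 array: without Eng+/- none 90 d, 13 member probes passed for tpa (3 higher, 10 lower) beside 23.1% of all probes, and 20 passed for clp, including the 14, beside 28.8%. Between clp and tpa, 7 of the 75 were called, all lower with clp, beside 7.43% of all probes (3.35% higher, 4.08% lower). The clp and tpa comparisons share the arrays with no named treatment, and the 2 comparisons with clp share the clp arrays. Alternative processing also moved these counts, as given in the closing section.

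The single calls differed in how often they were met again, over up to 11 alternative settings in which the probe was tested and over the 12 fits that each leave out 1 array. Among the settings, Aquantile normalisation between arrays leaves the log ratios as they are, so its calls were all but fixed in advance. Several others changed only which probes entered the fit, so the tallies do not count independent checks. For clp against no named treatment, Adam8, Adam19, Adamts2 and Adamts18 were called under 11 of 11 settings, and without 1 array in 11, 8, 8 and 12 of 12 fits. Mmp9, Timp4 and Adam17 were called under 10 of 11 settings and in 9, 6 and 6 of 12 fits, Adam23 under 9 of 10 and in 5, Mmp12 under 8 of 10 and in 9, and Adam26b under 8 of 11 and in 8. A further 4 calls were met less often: Adam15 under 7 of 11 settings and in 2 of 12 fits, Adamts16 under 5 of 9 and in 4, Adamts14 under 3 of 9 and in 4, and Mmp24 under 3 of 10 and in 2. For clp against tpa, Adam8 and Mmp9 were called under 10 of 10 settings and in 11 and 10 of 12 fits, Adam23 under 9 of 10 and in 6, Mmp13 under 6 of 9 and in 6, Adamts16 under 5 of 8 and in 5, Adamts2 under 5 of 10 and in 3, and Mmp25 under 4 of 8 and in 4.

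**Figure D1:**
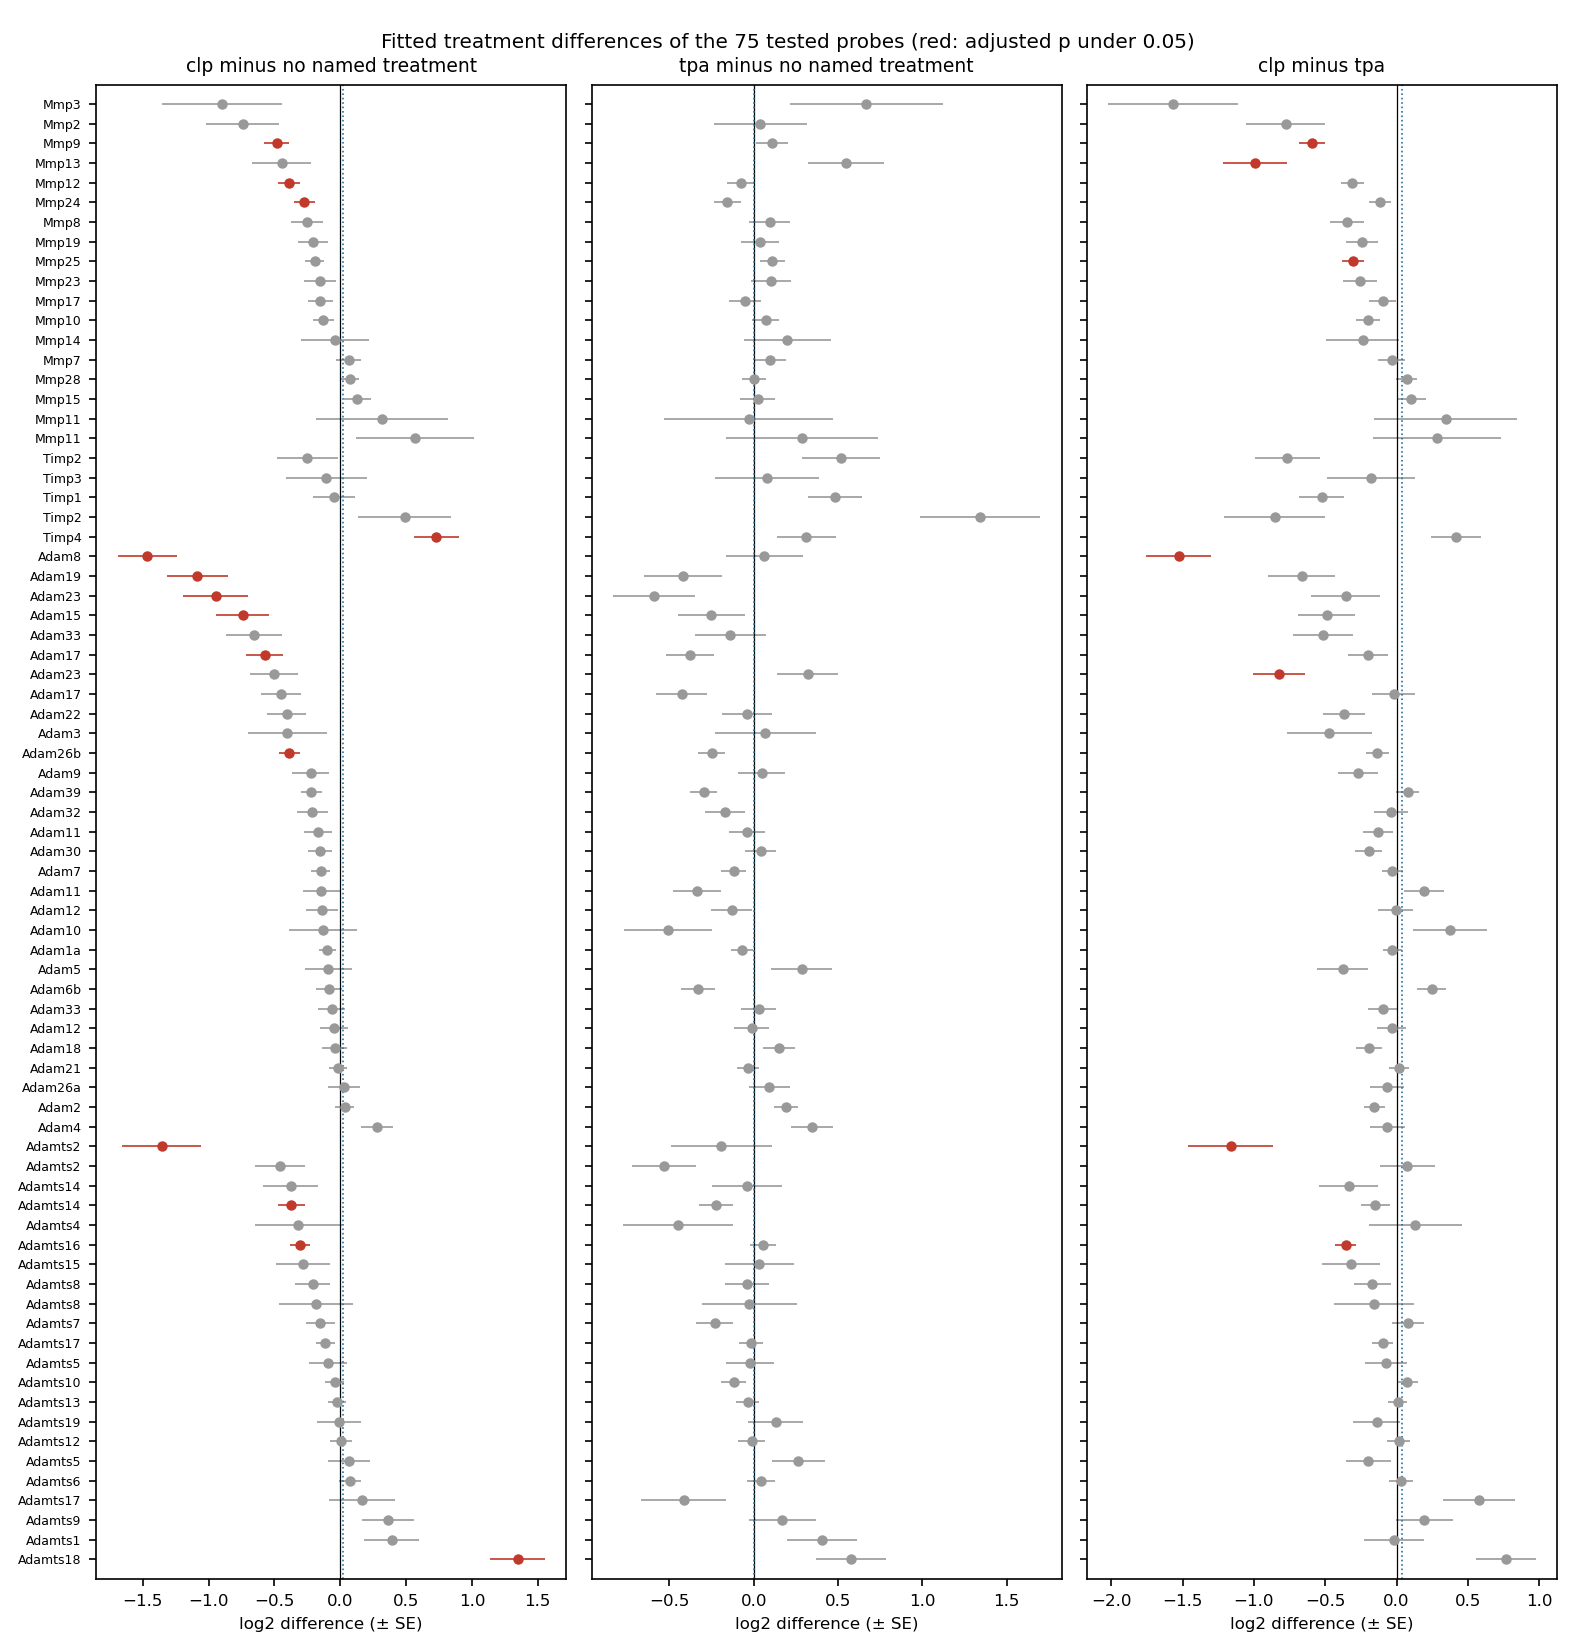
Fitted log2 differences (points, with the standard error as bars) of the 75 tested probes for 3 treatment comparisons, ordered by family (Mmp, Timp, Adam, Adamts) and by the clp difference. Red points passed adjusted p 0.05 (14 for clp, 0 for tpa, 7 for clp minus tpa), the solid line is 0 and the dotted line the median of all tested probes; 58 of the 75 points lie left of 0 with clp.

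In the values that follow, the 4 arrays of a treatment are in the order Eng+/- 50 d, wt 50 d, Eng+/- 90 d and wt 90 d. Differences are fitted log2 differences ± SE from limma, with its adjusted p.

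Among the collagenases, which cut fibrillar collagen, Mmp13 and Mmp8 were tested, and Mmp1a and Mmp1b were too dim. Mmp13 read 1.39, 0.76, 1.27 and 0.76 with no named treatment, 0.33, 0.15, 1.09 and 0.83 under clp and 1.13, 1.28, 1.50 and 2.46 under tpa. Every clp array was below every tpa array, and wt tpa 90 d was the highest of the 12. Mmp13 was lower with clp than with tpa by a log2 difference of -0.99 ± 0.22 (adjusted p = 0.032), and differed by -0.44 ± 0.22 from no named treatment (adjusted p = 0.186). Mmp8, the neutrophil collagenase, was above background on 7 arrays and passed in neither comparison.

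The gelatinases Mmp2 and Mmp9 cut denatured collagen and basement membrane collagen. Mmp9 read 0.78, 0.70, 1.06 and 0.82 with no named treatment, 0.37, 0.23, 0.57 and 0.27 under clp and 1.10, 1.08, 0.75 and 0.87 under tpa. The clp arrays lay below all others without overlap. Mmp9 fell with clp (difference -0.48 ± 0.09, adjusted p = 0.016) and was lower with clp than with tpa by -0.59 ± 0.09 (adjusted p = 0.0101), with all 4 pairs lower in each comparison.
Mmp2, the gelatinase of connective tissue cells and the brightest of the pair, read 0.51, 1.24, 0.99 and 0.25, then 0.54, -0.60, 0.29 and -0.19 under clp and 0.73, 0.84, 0.81 and 0.77 under tpa. Its clp arrays lay below the tpa arrays but overlapped those with no named treatment, and the differences of -0.74 ± 0.28 (adjusted p = 0.0904) and -0.78 ± 0.28 (adjusted p = 0.129) did not pass.

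The stromelysins have broad substrates and activate other Mmp precursors, apart from Mmp11, which has weak activity on matrix proteins. Mmp3 varied most of all members over the 12 arrays (SD 0.979): it read 0.60, 0.87, 1.23 and -0.12 with no named treatment, 0.36, -1.30, 1.12 and -1.21 under clp and 1.52, 1.50, 0.82 and 1.41 under tpa. Both wt clp arrays were the lowest and both Eng+/- clp arrays stayed near the others. No Mmp3 comparison passed, the clp to tpa difference being -1.57 ± 0.45 (adjusted p = 0.0728).
Over the 12 arrays the genes most like Mmp3 were Bdh2 (Pearson r = 0.966), Pcolce2 (0.963) and Olfml1 (0.957), as a description of arrays that share 1 reference pool.

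Mmp11 was measured by a pair of probes that tracked each other (Pearson r = 0.970 over 12 arrays). The brighter probe read -1.90, -1.54, -0.48 and -0.17 with no named treatment, 0.75, -1.89, -1.43 and -0.25 under clp and -1.35, -1.02, -1.00 and -0.83 under tpa. The other read -1.07, -0.80, 0.22 and 0.15, then 1.49, -0.95, -0.40 and 0.64, then -0.36, -0.13, -0.02 and 0.16. Eng+/- clp 50 d was the highest array on both probes, and its matched wt array was at or near the lowest. No Mmp11 comparison passed with all arrays (clp difference 0.32 ± 0.50 and 0.57 ± 0.45, adjusted p = 0.685 and 0.392). Mmp10 was above background on 6 arrays and passed in no treatment comparison.

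Of the smaller enzymes, Mmp12, the macrophage elastase, read 0.47, 0.23, 0.05 and -0.02 with no named treatment, -0.08, -0.22, -0.31 and -0.20 under clp and 0.15, 0.22, -0.04 and 0.10 under tpa. Its clp arrays were the lowest 4 of the 12. Mmp12 fell with clp (-0.39 ± 0.08, adjusted p = 0.0192). This dim probe was well above background on 10 arrays, but on only 2 of the 4 clp arrays. A second Mmp12 probe was well above background on 0 arrays and was not tested. Mmp7, or matrilysin, was above background on 7 arrays, none of them without a named treatment, and was not called (adjusted p = 0.658 and 0.54).

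Membrane-type Mmps are held at the cell surface, where Mmp14 activates the Mmp2 precursor. Mmp24 read -0.40, -0.16, -0.48 and -0.31 with no named treatment, -0.62, -0.58, -0.56 and -0.67 under clp and -0.48, -0.51, -0.46 and -0.51 under tpa. The clp arrays were the lowest 4, and the clp difference of -0.27 ± 0.08 passed (adjusted p = 0.0465) but turned to 0.27 ± 0.13 when Cy5 was read without the pool (adjusted p = 0.156). This dim probe was well above background on 2 of the 4 arrays with no named treatment, 4 with clp and 4 with tpa. A second Mmp24 probe was well above background on 1 array and was not tested.
Mmp25 read -0.11, 0.08, 0.19 and -0.01, then -0.15, -0.29, -0.08 and -0.11 under clp and 0.13, 0.13, 0.20 and 0.14 under tpa. It was above background on 5 of 12 arrays and was lower with clp than with tpa (-0.31 ± 0.07, adjusted p = 0.0407). That difference was -0.05 with median centring in place of loess (adjusted p = 0.964) and -1.60 with the authors' processed signals (adjusted p = 0.11), and the call was lost when any 1 of the 8 clp and tpa arrays was left out.
Mmp14, the brightest membrane-type member, read -2.06, -1.47, -1.31 and -2.11, then -1.19, -2.16, -1.97 and -1.78 under clp and -1.74, -1.42, -1.44 and -1.54 under tpa, and its groups overlapped. Mmp15 and Mmp17 were not called, and Mmp16 was not well above background on any array.
Among the other Mmps, Mmp23, the brightest, read 0.11, 0.12, 0.31 and -0.14, then 0.11, -0.11, -0.05 and -0.17 under clp and 0.37, 0.16, 0.15 and 0.12 under tpa; it was not called, nor were Mmp19 and Mmp28, and Mmp20 and Mmp21 were not well above background on any array.

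**Figure D2:**
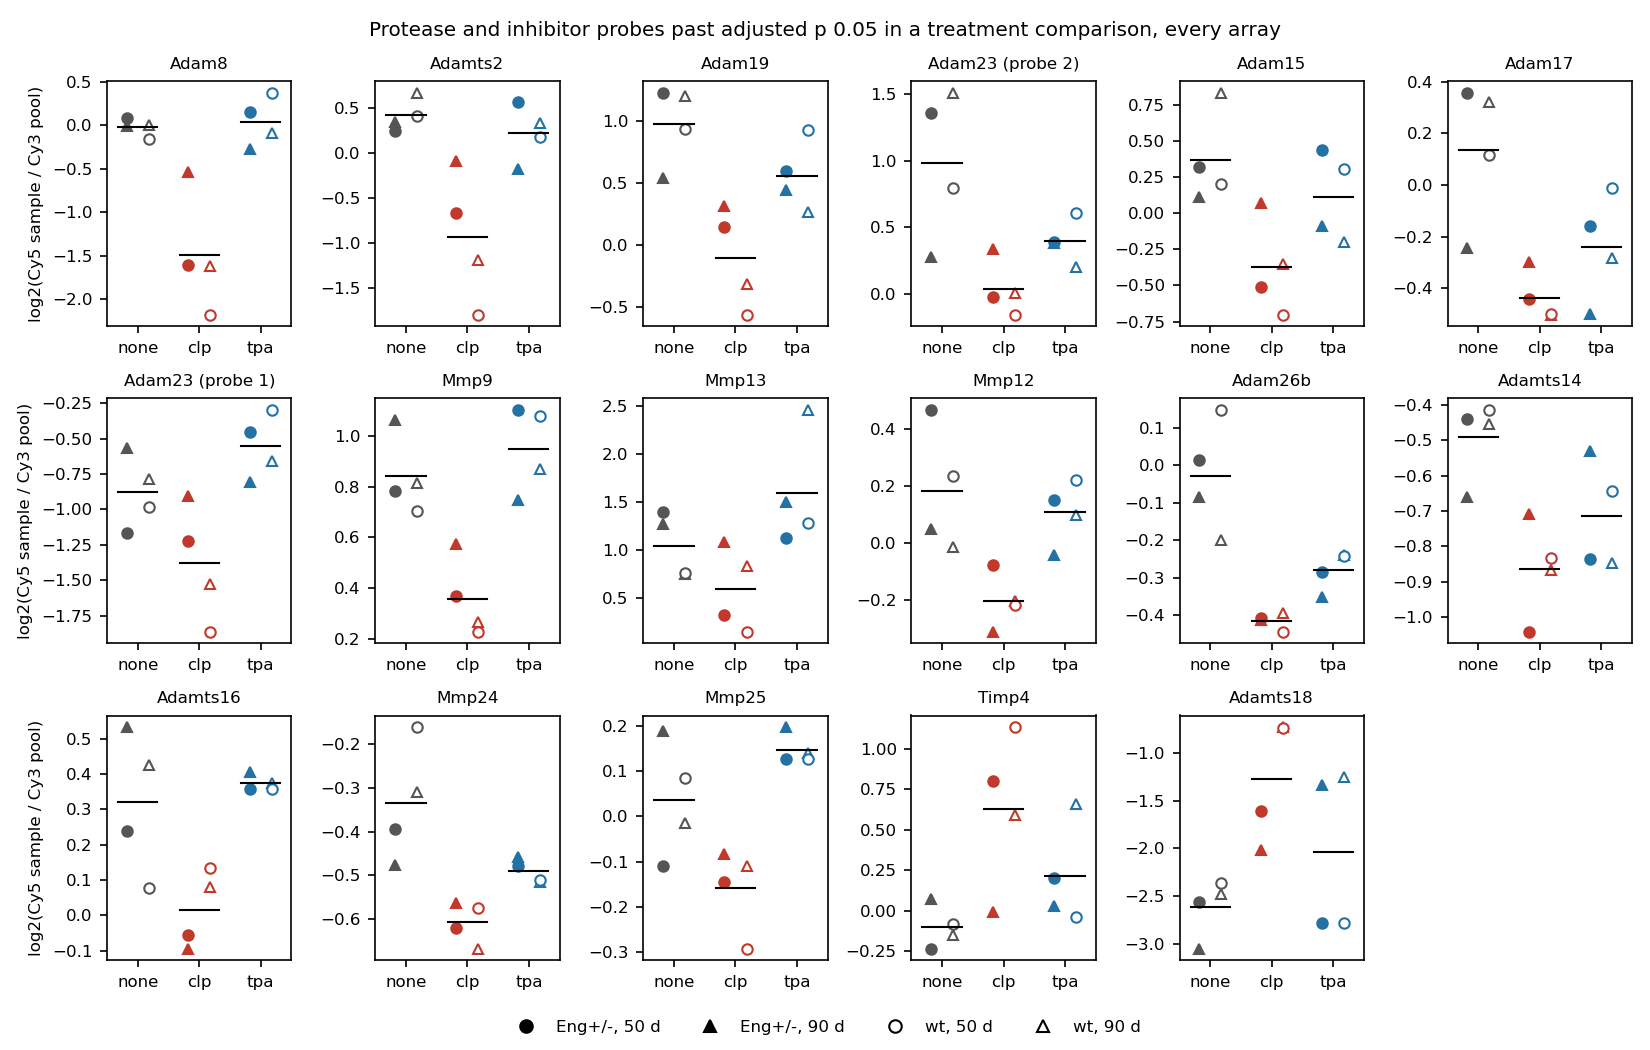
Log2 ratio of sample to pool on every array for the 17 member probes past adjusted p 0.05 in clp minus no named treatment or in clp minus tpa, by treatment. Filled symbols are Eng+/- and open symbols wt, circles are day 50 and triangles day 90, and the line is the mean of 4 arrays; vertical axes differ between panels. The Adam8, Mmp9 and Mmp12 clp arrays lie below all others, and the Adamts18 clp arrays lie above all arrays with no named treatment.

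All 4 inhibitors were measured, and Timp4 alone was called. Timp4 read -0.24, -0.08, 0.07 and -0.15 with no named treatment, 0.81, 1.14, -0.01 and 0.59 under clp and 0.20, -0.04, 0.03 and 0.66 under tpa. It rose with clp by 0.73 ± 0.17 (adjusted p = 0.0259), in 3 of 4 pairs; Eng+/- clp 90 d stayed within the range of the arrays with no named treatment.
Timp2, which also takes part in the activation of Mmp2 by Mmp14, was read by a pair of probes of unequal brightness. The brighter one was saturated in Cy5 on Eng+/- none 90 d and on 3 of the 4 tpa arrays (all but Eng+/- tpa 50 d), so that its readings there are lower bounds. It read -2.79, -2.40, -0.86 and -2.73 with no named treatment, -1.71, -1.69, -1.85 and -1.59 under clp and -1.28, -0.72, -0.67 and -0.74 under tpa. The other read -0.60, -0.08, 0.40 and -0.25, then -0.02, -0.91, -0.34 and -0.25, then 0.50, 0.51, 0.24 and 0.29.
On both Timp2 probes Eng+/- none 90 d was the highest array of its treatment. The fitted tpa differences were 1.34 ± 0.36 and 0.52 ± 0.23 (adjusted p = 0.0922 and 0.201), the first from readings that include the saturated ones on both sides and so no exact size. Without Eng+/- none 90 d the brighter probe read higher with tpa by 1.87 (adjusted p = 0.000703), where the tpa level is a lower bound, and by 1.01 ± 0.17 with clp, where no array was saturated (adjusted p = 0.00454). In that fit the dimmer, unsaturated probe was called neither for clp nor for tpa against no named treatment, but only for clp against tpa (-0.77). The clp differences of the probes had opposite signs with all arrays, 0.49 ± 0.36 and -0.25 ± 0.23.

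Timp1, an inhibitor of secreted Mmps, read -0.09, -0.55, -0.69 and -0.94 with no named treatment, -0.83, -1.13, -0.18 and -0.31 under clp and -0.20, -0.10, -0.21 and 0.16 under tpa. The tpa difference of 0.48 ± 0.16 did not pass (adjusted p = 0.124). Timp3, which binds to the matrix and also blocks Adam17, read -1.73, -1.45, -0.76 and -0.60, then -1.43, -0.96, -2.10 and -0.46, then -1.09, -1.24, -0.65 and -1.24. Its groups overlapped throughout and its differences were between -0.18 and 0.08.

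**Figure D3:**
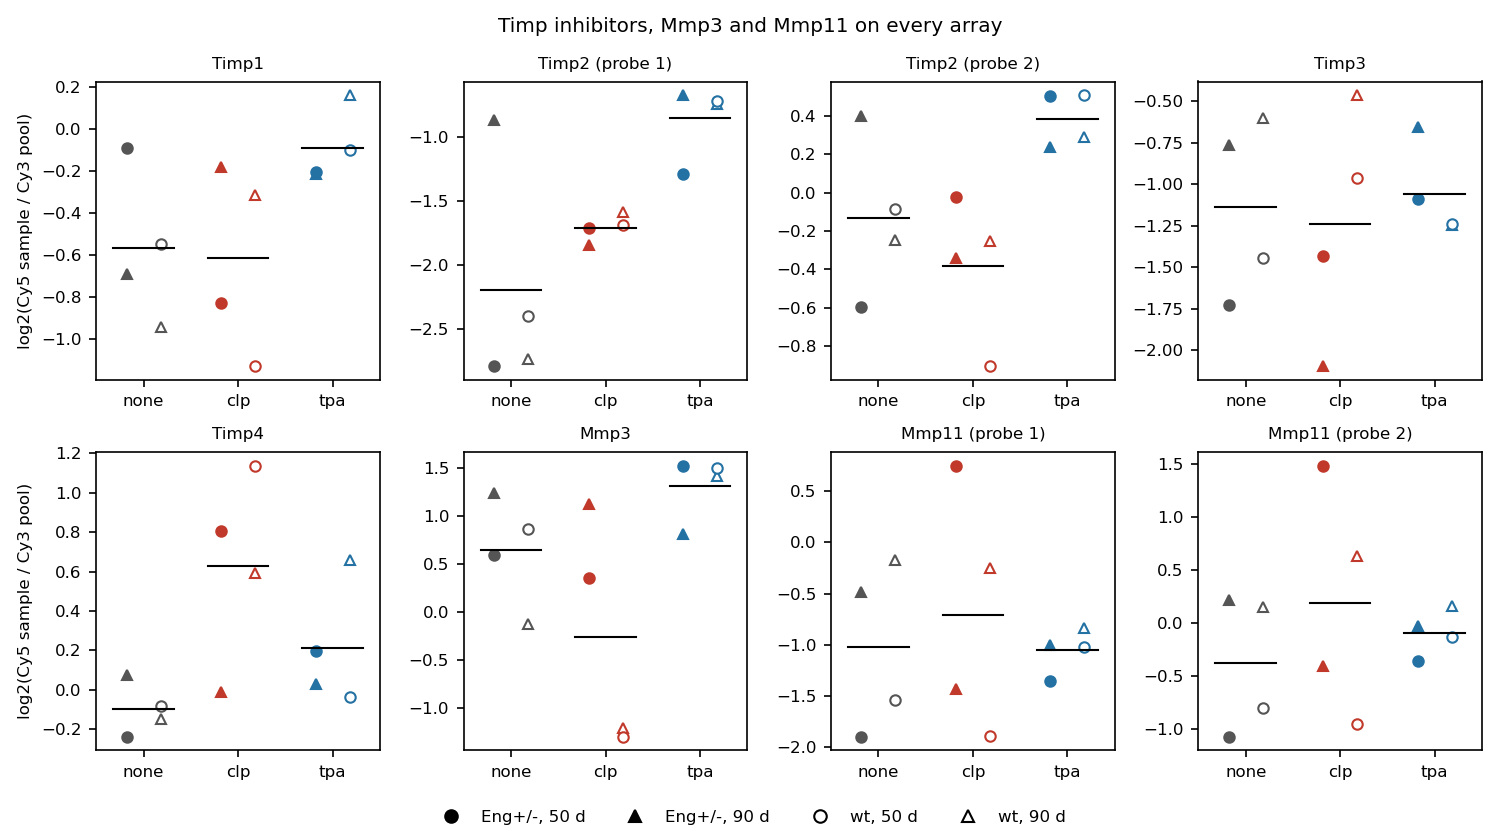
Log2 ratio of sample to pool on every array for the 4 Timp inhibitors (a pair of probes for Timp2), Mmp3 and both Mmp11 probes, by treatment, with symbols as filled for Eng+/-, open for wt, circles for day 50 and triangles for day 90; the line is the mean of 4 arrays. Timp4 is highest on both clp 50 d arrays, Mmp3 is lowest on both wt clp arrays, and Mmp11 is highest on Eng+/- clp 50 d.

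Among somatic Adams with a protease active site, 4 of 11 probes fell with clp, beside 7.28% of all probes, none rose, and all 11 had a negative difference (median -0.45, beside 0.02 over all probes). Adam8, an Adam of leukocytes that sheds adhesion molecules, read 0.08, -0.16, -0.01 and 0.00 with no named treatment, -1.60, -2.18, -0.53 and -1.62 under clp and 0.15, 0.38, -0.27 and -0.08 under tpa. All clp arrays were below all others. Adam8 fell with clp (-1.46 ± 0.23, adjusted p = 0.0112) and was lower than with tpa by -1.53 ± 0.23 (adjusted p = 0.00859), in 4 of 4 pairs each.
The genes most like Adam8 over the 12 arrays were Ccdc88b (Pearson r = 0.988), Arhgap45 (0.987) and Cd300lf (0.984). Macrophage markers moved with it: 9 of 11 marker probes of the 8 genes tested fell with clp, beside 7.28% of all probes. The mean ratio of the list ranged from -1.45 to -0.77 with clp, from -0.12 to 0.28 with no named treatment and from 0.07 to 0.55 with tpa. Each of its 8 genes with a probe was above background on all 12 arrays. Their part in the lower Adam8, Mmp9 and Mmp12 was not tested.

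Adam19, which cleaves neuregulins, read 1.23, 0.94, 0.54 and 1.20 with no named treatment, 0.15, -0.57, 0.31 and -0.32 under clp and 0.60, 0.93, 0.44 and 0.27 under tpa. Its clp arrays were below all arrays with no named treatment, and it fell (-1.09 ± 0.23, adjusted p = 0.0201).
Adam15, the brightest of these Adams, read 0.32, 0.20, 0.11 and 0.84, then -0.51, -0.71, 0.07 and -0.35 under clp and 0.44, 0.31, -0.08 and -0.20 under tpa. It fell with clp (-0.74 ± 0.20, adjusted p = 0.0369), a call lost with the authors' processed signals (adjusted p = 0.0567), with median centring (adjusted p = 0.203) and in 10 of the 12 fits without 1 array, and only Eng+/- clp 90 d came close to the arrays with no named treatment.

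Adam17 releases tumour necrosis factor and ligands of the epidermal growth factor receptor. Its brighter probe read 0.36, 0.11, -0.25 and 0.32 with no named treatment, -0.44, -0.50, -0.30 and -0.51 under clp and -0.16, -0.01, -0.50 and -0.28 under tpa. It fell with clp (-0.57 ± 0.14, adjusted p = 0.0284). The other read 0.60, 0.20, -0.20 and 0.46, then -0.23, -0.17, -0.07 and -0.26, then -0.13, 0.02, -0.25 and -0.28, a difference of -0.45 ± 0.15 that did not pass (adjusted p = 0.0699). The probes rose and fell together over the arrays (Pearson r = 0.933). Adam9, Adam10, Adam12 and Adam33 were not called, and Adam28 was not well above background on any array.

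Adam11, Adam22 and Adam23 lack the catalytic zinc site and are known as adhesion proteins of nerve cells. The probes of Adam23 did not track each other (Pearson r = 0.319). The brighter one read -1.17, -0.98, -0.57 and -0.78 with no named treatment, -1.22, -1.87, -0.91 and -1.52 under clp and -0.45, -0.30, -0.81 and -0.66 under tpa, and was lower with clp than with tpa (-0.82 ± 0.18, adjusted p = 0.0286). The dimmer one read 1.36, 0.80, 0.28 and 1.51, then -0.02, -0.16, 0.34 and 0.01, then 0.39, 0.61, 0.38 and 0.21, and fell with clp (-0.95 ± 0.24, adjusted p = 0.0329). Each call was thus made by 1 of the 2 probes, with a same-signed difference on the other (-0.50 ± 0.18 and -0.36 ± 0.24).
Of 14 tested Adam probes in no role list, most of them genes known from the testis and epididymis in mice, 1 was called: Adam26b read 0.01, 0.15, -0.08 and -0.20 with no named treatment, -0.41, -0.45, -0.41 and -0.40 under clp and -0.29, -0.24, -0.35 and -0.24 under tpa. Its clp arrays were the lowest 4 and its difference was -0.39 ± 0.08 (adjusted p = 0.0186).

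Adamts2 and Adamts14 remove the amino-terminal propeptide of fibrillar procollagens. The brighter Adamts2 probe read 0.24, 0.42, 0.35 and 0.67 with no named treatment, -0.66, -1.80, -0.08 and -1.19 under clp and 0.57, 0.18, -0.17 and 0.34 under tpa. It fell with clp (-1.35 ± 0.30, adjusted p = 0.0216), in 4 of 4 pairs, and was lower than with tpa by -1.16 ± 0.30 (adjusted p = 0.0484), in 3 of 4 pairs, a call lost with the authors' processed signals, median centring, Cy5 alone, every probe or no intensity trend (adjusted p from 0.0541 to 0.0979) and without any 1 tpa array.
The dimmer Adamts2 probe read -0.59, -0.01, -1.51 and -0.53, then -0.93, -1.28, -1.14 and -1.10, then -1.16, -1.20, -1.26 and -1.14. It did not pass for clp (-0.46 ± 0.19, adjusted p = 0.122), and the pair correlated weakly (Pearson r = 0.328).
One of the pair of Adamts14 probes, the dimmer, read -0.44, -0.41, -0.66 and -0.45, then -1.04, -0.83, -0.71 and -0.87 under clp and -0.84, -0.64, -0.53 and -0.85 under tpa, and was called (-0.37 ± 0.10, adjusted p = 0.0398). The difference was -0.78 with the authors' processed signals and -0.12 with Cy5 alone, where the call was lost (adjusted p = 0.0767 and 0.36). Arrays with the dimmer probe well above background numbered 2 of 4 with no named treatment, 3 with clp and 4 with tpa. The call therefore rests partly on readings near background. The brighter read -0.03, 0.20, 0.19 and -0.03, then -0.28, -0.57, 0.42 and -0.73, then 0.11, -0.04, 0.15 and -0.04, and had the same difference with a wider error (-0.37 ± 0.21, adjusted p = 0.225).
Fibroblast markers were lower as well: 6 of 9 marker probes fell with clp, beside 7.28% of all probes, among them Lum (lumican, -1.69) and Col5a1 (-1.13). The mean ratio of the list ranged from -0.88 to -0.34 with clp, from -0.18 to 0.78 with no named treatment and from -0.28 to 0.02 with tpa. Their part in the lower Adamts2 and Adamts14 was not tested.

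None of the 8 probes of the proteoglycan-cutting Adamts genes was called for clp (median difference -0.14). Adamts1, the brightest of them, read -1.75, -1.95, -1.84 and -1.13 with no named treatment, -1.44, -1.16, -1.46 and -1.05 under clp and -1.54, -1.40, -0.77 and -1.33 under tpa, a difference of 0.39 ± 0.21 with clp (adjusted p = 0.21). Adamts4, an aggrecan-cutting enzyme, was not called with all arrays (-0.32 ± 0.33 with clp, adjusted p = 0.518). It read 1.21, 0.19, 0.06 and 1.62 with no named treatment, from 0.25 to 0.60 under clp and from 0.04 to 0.48 under tpa. Without Eng+/- none 90 d it was lower with clp by -0.79 ± 0.19 (adjusted p = 0.0162) and with tpa by -0.92 ± 0.19 (adjusted p = 0.0109). No other fit that left out 1 array called it in these comparisons, and wt none 50 d (0.19) lay below every clp array.

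Adamts18, whose substrates are less well known, was the member that rose most with clp. It read -2.57, -2.36, -3.06 and -2.48 with no named treatment, -1.61, -0.73, -2.02 and -0.72 under clp and -2.79, -2.78, -1.34 and -1.25 under tpa. All clp arrays were above all arrays with no named treatment, and the tpa arrays split by day, with both at 50 d low and both at 90 d high. Adamts18 rose with clp by 1.35 ± 0.21 (adjusted p = 0.0112), in 4 of 4 pairs, while the difference between clp and tpa was 0.77 ± 0.21 (adjusted p = 0.0569).
Over the 12 arrays the genes most like Adamts18 were Plk1 (Pearson r = 0.973), Mki67 (0.969) and Hhip (0.969). The mean ratio of the 14 hair shaft and root sheath marker probes was -1.28, -0.17, -5.87 and 0.31 with no named treatment, 0.80, 0.85, -1.11 and 0.49 under clp and -4.58, -5.25, -1.49 and -0.07 under tpa. It was near 0 on both wt arrays with no named treatment, where Adamts18 was low. It was lowest on Eng+/- none 90 d and both tpa 50 d arrays, where Adamts18 was lowest too. Of the 14 probes, 2 were called higher with clp, beside 9.95% of all probes. The part of hair in the higher Adamts18 was not tested.
Adamts16 read 0.24, 0.08, 0.53 and 0.43, then -0.06, 0.14, -0.10 and 0.08 under clp and 0.36, 0.36, 0.40 and 0.37 under tpa. It was not well above background on any clp array, passed the filter only through 2 arrays with no named treatment and 4 with tpa, and is therefore a description and no support for the counts of 14 and 7. Only a bound on Cy5 intensity, which was not tested, holds with clp: it was at least 1.28-fold higher with tpa than with clp. The same figure for no named treatment was 1.18-fold. It rests on a mean in which only 2 of 4 arrays were well above background, and is no strict minimum. In both figures, the lowest Cy5 signal well above background stood in for a dimmer one with clp. Adamts17, the brightest of the remaining Adamts genes, had probes that did not track each other (Pearson r = -0.18). The brighter read 1.04, 0.23, -0.65 and 0.45, then 0.20, 0.56, 0.56 and 0.42, then -0.55, -0.48, 0.33 and 0.11, and was not called.

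No protease or inhibitor probe passed for genotype, where none of the 30233 probes was called (0% called, smallest adjusted p = 0.496, with 2897 probes and 3 of the 75 members at an unadjusted p under 0.05). Without both arrays of tpa at 50 d the count was again 0. Adam21, an Adam known from the testis, had the smallest p of the members: it read 0.15, -0.05, 0.15 and -0.15 with no named treatment, 0.10, -0.12, 0.16 and -0.09 under clp and 0.15, -0.05, -0.04 and -0.09 under tpa. It was higher on the Eng+/- array in 6 of 6 pairs, by 0.20 ± 0.06 (adjusted p = 0.496). Adamts18 was lower with Eng+/- by -0.51 ± 0.17 (adjusted p = 0.496), and its largest pair differences were those of clp.
Adamts17 differed by -0.14 ± 0.06 on its dimmer probe, which read 0.04, 0.14, 0.00 and -0.04 with no named treatment, -0.22, -0.03, -0.08 and 0.03 under clp and -0.07, 0.21, -0.13 and 0.08 under tpa (adjusted p = 0.506). Adamts7, a cartilage protein protease, read 0.56, 0.47, 0.25 and 0.31, then 0.38, 0.09, 0.46 and 0.05, then 0.15, 0.14, 0.37 and -0.01, and differed by 0.19 ± 0.09 (adjusted p = 0.548).
Within pairs, Mmp3 was higher with Eng+/- by 2.33 (clp, day 90), by 1.66 (clp, day 50) and by 1.36 at 90 d with no named treatment, but not at 50 d (-0.27) or at 90 d with tpa (-0.59), and its fitted difference of 0.75 ± 0.37 did not pass (adjusted p = 0.551). Both Mmp11 probes were higher on the Eng+/- array at 50 d with clp, by 2.64 and 2.43, and lower at 90 d with clp, by -1.18 and -1.04. Of the marker lists, none had a probe called for genotype; the median difference was -1.65 over the 14 hair probes, with -5.87 on Eng+/- none 90 d against 0.31 on its wt array, and 0.78 over the 7 muscle probes.

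**Figure D4:**
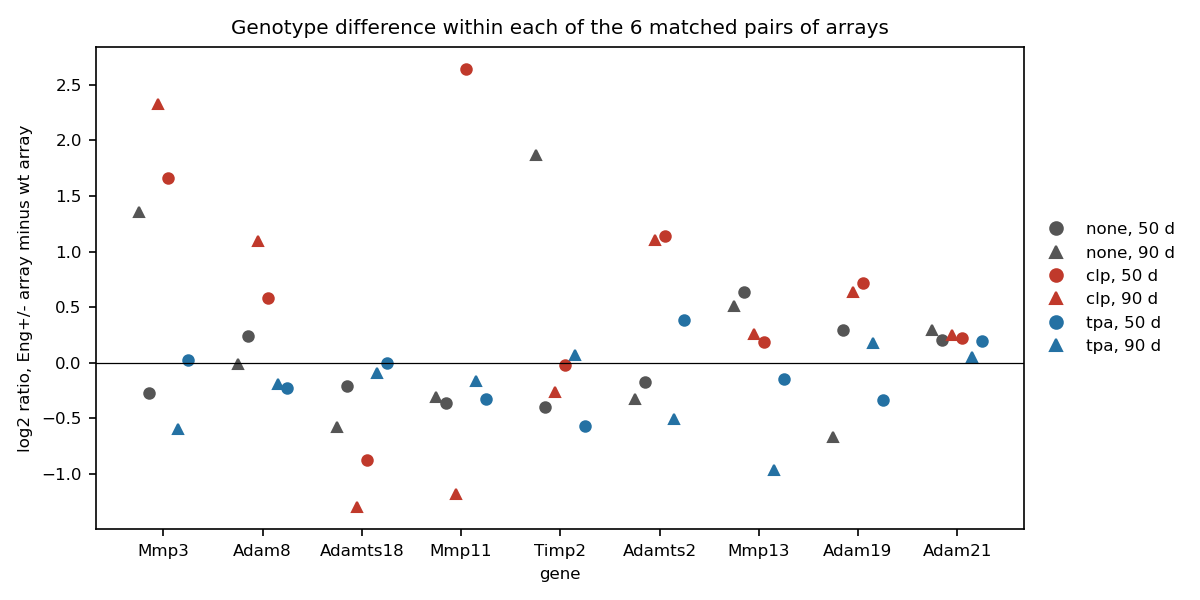
Difference in log2 ratio between the Eng+/- and the wt array within each of the 6 matched pairs (color for treatment, circles for day 50, triangles for day 90) for the 8 most variable members and Adam21, 1 probe a gene. Mmp11 has 1 pair at 2.64 against 5 pairs below 0, and Adam21 is above 0 in all 6.

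No member passed for day, within any treatment, where none of the 30233 probes was called (0% called; with no named treatment 1603, with clp 1063 and with tpa 1593 probes at an unadjusted p under 0.05, among them 4, 4 and 3 member probes). The day by treatment and the genotype by treatment interaction each had no call over all probes (0% called). The genotype by day interaction called 0.265% of all probes (0.00331% higher, 0.261% lower) and no member (smallest adjusted p = 0.688, Adamts8). These tests have few degrees of freedom, 5 in the fit of all comparisons and 2 in the fit with interactions of genotype.

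Of the genes around the Mmps that are not of these families (plasminogen activators, cathepsins, convertases and serine protease inhibitors, 43 tested probes of 35 genes), 8 probes fell and 3 rose with clp, beside 7.28% lower and 9.95% higher over all probes, and none was called for tpa. Ctss, the cathepsin of antigen-presenting cells, fell (-2.05 ± 0.26, adjusted p = 0.0106). Plau, the urokinase-type plasminogen activator, fell (-0.65 ± 0.17, adjusted p = 0.0321), and Furin, which activates several membrane-type Mmps and Adams, fell too (-1.19 ± 0.31, adjusted p = 0.0332). Adamtsl1, Adamtsl2, Htra1, Pcsk6 and Spint2 fell as well. St14, the membrane serine protease matriptase, rose by 0.94 ± 0.20 (adjusted p = 0.0186), and both probes of its inhibitor Spint1 rose, by 1.11 ± 0.21 and 0.92 ± 0.16 (adjusted p = 0.0163 and 0.0137).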

How the data were processed

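Per the file headers, the deposited scanner files hold median foreground and background intensity values of both channels from Agilent Feature Extraction 10.7.3.1 (10.0 per the submitters' processing notes), on a 2-colour array whose probes are annotated on mm9, with the authors' processed signals beside them. In the deposited value table, each value is a log10 ratio of processed Cy5 to Cy3 and equalled the scanner log ratios on every spot (largest difference 0), so its direction is sample over pool; each array's median was 0. The series text describes dye swaps, wt RNA in Cy3 and another scanner, which the array labels do not show; the labels were followed.

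Intensities were processed with limma 3.58.1 in R 4.3.3: background correction by normexp (offset 50), then within-array loess, and the mean of spots of the same probe. Fitted on all spots, normexp estimated a background mean from -545 to -78 in Cy5 on 4 arrays, because a few spots had very bright surroundings; spots with a flag for uneven local background (4 to 119 an array) were therefore left out, which gave estimates from -2.9 to 23. This was decided after seeing the data, and the fit on all spots is given as an alternative. Control spots and outlier flags were left out (1305 of 39429 probes), and 27234 probes were named by accession through a RefSeq table. The 30233 probes with Cy5 well above background on 2 or more arrays were fitted on genotype plus 6 conditions of treatment and day (5 residual degrees of freedom, prior 4.25, eBayes with trend), and with a second model of all 2-way interactions (2 degrees of freedom). The 12 groups have 1 array each, so the spread is that left by the model, which may be technical, and the number of arrays limits the precision. The fit was tested on simulated data.

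The members and the gene lists were chosen with earlier results of these data known. Genes named with values on every array were the probes called in a comparison (up to 15, by size), the 8 members of largest SD, the Timps, the brightest gene of each role list and the 5 members of smallest p for genotype; likeness was given for the 3 of largest SD, as the 3 genes of highest Pearson correlation. Gene coordinates are printed only for promoters, in the build of their table. Further lists served as markers of fibroblasts, macrophages, neutrophils (0 of 6 probes called for clp), epidermis (1 of 10, lower), hair, endothelium (3 of 10, lower), skeletal muscle (0 of 7) and embryonic stem cells (0 of 5). Of all tested probes, 17.2% were called for clp, 9.95% higher and 7.28% lower.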

Additional observations from a re-analysis of the deposited data

How the results depend on the processing

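Replicate numbers link nothing, because each group has 1 array. Arrays were matched by treatment and day, which the fit holds as conditions, so that genotype was compared within these matched pairs. The count of member probes called for clp against no named treatment was 14, beside 17.2% of all probes. It was 9 with median centring in place of loess (beside 9.59% of all probes), 22 with Cy5 alone (24.5%) and 4 with normexp fitted on all spots (6.49%). That last alternative was chosen after seeing the data, and its calls were Adam8, Adam19 and Adamts2 lower and Adamts18 higher. For clp against tpa the count was 7, beside 7.43% of all probes. It was 3 with the authors' processed signals (beside 5.76%) or with no intensity trend (6.17%). With median centring it was 6, of which 1 was higher (beside 6.87%). Median centring also called 1 member for day with tpa (beside 0.222% of all probes), 1 for genotype by day and 3 for genotype by treatment, each 0 in the fit reported above. Over all probes, the alternative settings reached at most 485 calls for genotype by day and 419 for genotype by treatment. Mmp24 turned to 0.27 with Cy5 alone. Leaving out 1 array at a time gave 2 to 20 calls for clp, 0 to 13 for tpa, 0 to 12 for clp against tpa, 0 to 2 for day with no named treatment, 0 to 3 for genotype by treatment and 0 for genotype, day with clp or tpa and the other interactions. The lowest clp counts came without wt clp 90 d or wt clp 50 d, and the 0 for clp against tpa without wt tpa 50 d. The clp calls of Adam8, Adam19, Adamts2 and Adamts18 passed under all 11 alternative settings that were run without leaving out a single array, and of these Adamts18 also without each of the 12 arrays. Those settings include Aquantile normalisation, which leaves the log ratios as they are, and several that changed only which probes were tested. Over all probes, the clp count ranged from 1961 to 7421 under the alternative settings, beside 5207, the clp to tpa count from 1740 to 2599, beside 2247, and the tpa count from 0 to 647, beside 23. Leaving out 1 array moved them further: to 571 for clp without wt clp 50 d, to 271 for clp against tpa and 0 for tpa without wt tpa 50 d, and to 8719, 3416 and 6979 without Eng+/- none 90 d.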
